A study of Mus musculus with 9 samples.

Results

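The BCL2 family decides whether a cell's mitochondria release the factors that start apoptosis. The genes described here are 10 members of it, and they were taken as every non-control probe set annotated to exactly 1 of those symbols. This gave 34 probe sets of the 45037 tested, and 10 genes of the 18193 with at least 1 such probe set. Bcl2l15 had 1 probe set and the other 9 genes had between 2 and 6 each.

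Pro-survival members such as Bcl2, Bcl2l1 (which encodes BCL-XL) and Mcl1 hold the pore-forming effectors in check. Bak1 encodes such an effector, and oligomers of it open the outer mitochondrial membrane. The BH3-only proteins, here Bcl2l11 (BIM), Bid, Bik, Bmf and Bad, are sensors of stress or of lost growth signals that bind the pro-survival proteins, and some also activate the effectors directly. Bcl2l15 (BFK) carries only some of the family's homology regions, and the mouse protein has been described as a weak promoter of cell death. In airway epithelium this balance sets how many damaged or detached cells are removed.

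RNA was measured on Affymetrix MG-430 2.0 arrays in 3 mouse lines of mixed strain, labelled C57/BL6 x sv129, with 3 arrays each. The tumour cells, named MDA-F471, come from a lung adenocarcinoma. Its host was a female mouse lacking Gprc5a that had been injected with NNK, a carcinogen of tobacco, 16 months earlier. The knockout line was grown from the trachea of a Gprc5a-knockout mouse aged 3 weeks and is not tumorigenic. The wild-type line was grown from the trachea of a mouse of the same age with intact Gprc5a, and is not tumorigenic either. Each group is thus 1 line, so line, genotype and handling cannot be told apart, and the tumour line differs from both others in organ, carcinogen exposure and age of the mouse as well. Nothing in the labels says that the arrays of a line came from separate cultures, and each p-value therefore covers array-to-array spread alone, which may be technical. Values are log2 signals. A probe set was called when limma's adjusted p was under 0.05 and the difference was at least 2-fold, and the brightest probe set stands for a gene where genes are counted. A log2 signal of 5.15, the 95th percentile of 27 bacterial control probe sets, served as a floor. Signals of different probe sets are on different scales and are not set against each other.

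The arrays carried the targeted gene and lineage markers as follows. Gprc5a, the airway receptor removed in the knockout mouse, had 6.96, 7.02 and 7.09 on tumour arrays, 7.20, 7.09 and 7.18 on knockout arrays, and 8.63, 8.74 and 8.32 on wild-type arrays. Whether its probe set lies in the deleted part is not known. The basal cell keratin Krt5 was at 8.24 to 8.58 on tumour arrays, against 14.28 to 14.45 on knockout and 14.45 to 14.47 on wild-type arrays. The basal cell factor Trp63 and the keratin Krt17 were under the floor on every tumour array. The mean over the 6 basal markers was 5.95 to 6.06 on tumour arrays, 11.82 to 11.95 on knockout arrays and 12.18 to 12.30 on wild-type arrays. The mean over 6 epithelial markers was 12.75 to 12.76 on tumour arrays, 10.03 to 10.31 on knockout arrays and 10.03 to 10.08 on wild-type arrays. In both tumour comparisons 4 of the 6 were called higher, beside 7.79% of all genes against knockout and 8.09% against wild-type. Cdh1 went the other way without a call, averaging 11.92, 12.63 and 12.88 in the tumour, knockout and wild-type lines. Its tumour arrays lay below all others. Between knockout and wild-type, 2 of the 6 epithelial markers were called higher and 1 lower, beside 1.9% and 2.98% of all genes. Keratin genes separated all 3 lines, with Krt18 averaging 14.08, 10.59 and 8.03 and Krt19 averaging 12.05, 5.32 and 10.22 in the tumour, knockout and wild-type lines. The junction gene Cldn7 averaged 12.42, 7.84 and 5.72 in the same order. Of 6 smooth muscle markers the actin gene Acta2 was the 1 called, averaging 8.23, 9.84 and 11.24, and the list mean was 6.29 to 6.44 on tumour arrays, 6.51 to 6.65 on knockout arrays and 6.76 to 6.83 on wild-type arrays. The surfactant gene Sftpc, which defines alveolar type II cells, was at 5.50 to 5.93, 5.63 to 5.86 and 5.61 to 5.90 in the tumour, knockout and wild-type lines. In each line, 4 of the 5 alveolar type II markers measured were above the floor on every array, and none was called in any comparison. Sftpc, Sftpa1 and Nkx2-1 nevertheless stayed under 5.96, the highest bacterial control value, on every array. Nkx2-1 averaged 5.35, 5.47 and 5.18 in the tumour, knockout and wild-type lines. Sftpb averaged 7.85, 7.99 and 7.68 and Abca3 averaged 9.52, 9.62 and 9.64 in the same order. Of 6 leukocyte markers, Ptprc and Itgam were under the floor on every array of each line. The remaining 4 were above it on every array, but 1 of these, Cd79a, stayed under 5.96 throughout. Cd3e averaged 7.26, 7.21 and 7.19 in the tumour, knockout and wild-type lines. Cd68, also among the 4, averaged 6.92, 7.71 and 8.03 in the same order. It was the only leukocyte marker called, 2.16-fold lower for tumour against wild-type (limma adjusted p = 5.86e-06). The leukocyte list mean was 5.91 to 5.96 on tumour arrays, 5.92 to 6.02 on knockout arrays and 6.03 to 6.08 on wild-type arrays. Of 6 fibroblast markers, 5 were likewise above the floor on every array of each line. A signal above the floor does not by itself show that a cell type is present. The log2 difference between the 3' and 5' beta-actin controls, a sign of RNA quality, was 0.37 to 0.74 on tumour arrays, 0.90 to 0.95 on knockout arrays and 0.75 to 1.78 on wild-type arrays. The hybridisation control BioB-M read 7.60 to 8.24 on tumour arrays, 8.32 to 9.48 on knockout arrays and 8.42 to 8.57 on wild-type arrays. The part of these markers and controls in the results below was not tested.

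The promoters of Bcl2l15, Bcl2 and Bid are shown because these 3 genes were the members called higher, by their brightest probe sets, in the tumour line against both other lines. Each runs from 250 bases before to 50 bases after the RefSeq start, in build GRCm38.p6. They lie at chr3:103832446-103832745 on the plus strand for Bcl2l15, at chr1:106714241-106714540 on the minus strand for Bcl2, and at chr6:120916775-120917074 on the minus strand for Bid. Capitals mark matches, on either strand, to any motif searched.
Bcl2l15 promoter: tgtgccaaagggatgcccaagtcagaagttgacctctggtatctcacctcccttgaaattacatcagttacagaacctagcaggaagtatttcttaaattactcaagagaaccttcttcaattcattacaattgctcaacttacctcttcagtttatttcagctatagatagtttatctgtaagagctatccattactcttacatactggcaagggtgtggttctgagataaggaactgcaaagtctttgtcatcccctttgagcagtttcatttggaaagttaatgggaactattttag
Bcl2 promoter: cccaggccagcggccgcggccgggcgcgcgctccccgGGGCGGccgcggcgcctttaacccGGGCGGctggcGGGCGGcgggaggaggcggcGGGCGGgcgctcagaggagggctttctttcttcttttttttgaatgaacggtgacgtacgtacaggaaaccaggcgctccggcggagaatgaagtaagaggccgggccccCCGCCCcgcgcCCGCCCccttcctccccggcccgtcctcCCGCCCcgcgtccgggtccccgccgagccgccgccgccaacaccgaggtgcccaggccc
Bid promoter: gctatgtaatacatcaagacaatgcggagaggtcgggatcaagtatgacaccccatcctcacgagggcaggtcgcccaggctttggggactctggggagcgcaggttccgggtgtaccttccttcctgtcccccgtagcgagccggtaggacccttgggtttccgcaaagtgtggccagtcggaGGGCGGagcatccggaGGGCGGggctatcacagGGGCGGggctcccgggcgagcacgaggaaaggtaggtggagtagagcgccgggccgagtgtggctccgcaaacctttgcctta
Motifs were searched on both strands. The AP-1 string was TGANTCA. For the E-box it was CACGTG. The CCAAT box was searched by its name's letters. For the GC box the letters were GGGCGG. For the TATA box they were TATAAA. The forkhead string was GTAAACA. For E2F the strings TTTGGCGC and then TTTCCCGC were used. For ETS factors the string was CCGGAAG. For TEAD factors it was GGAATG. No matches overlapped in the printed windows. The Bcl2 promoter held 7 matches to the GC box and was 76.0% GC. The Bid promoter held 3 matches to the GC box and was 63.3% GC. The Bcl2l15 promoter was 38.3% GC and none of these letter strings occurs in its window. Of all 32851 promoter windows in the table, 35.7% hold a GC box match, 37.4% a CCAAT box, 14.7% the TEAD string, 13.6% a TATA box, 8.86% the ETS string, 7.81% the AP-1 string, 7.15% an E-box and 3.65% the forkhead string. The E2F strings are rarer, at 0.514% for the first and 1.07% for the second. A match is a description of the sequence and no evidence of binding. Of the 10 members, 9 had 15 windows in the table between them. The only forkhead string among them, GTAAACA, lies in a window of Bcl2l11, a gene known to be switched on by FOXO factors in other cells.

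The comparison of the tumour line with the knockout line, which share the Gprc5a-knockout genotype, gave calls for 4 of the 10 genes by their brightest probe set. Bcl2l15, Bcl2 and Bid were higher in the tumour line and Bad was lower. Over all genes, 14.2% were called, 7.79% as higher and 6.38% as lower. By probe set, 10 of 34 were called higher and 5 lower, beside 11.4% called either way among all probe sets, 6.19% as higher and 5.18% as lower. The tumour and knockout arrays were fully separate for 27 of the 34 probe sets, against 46.4% of all, and for 7 of the 10 genes, against 52.3% of all. The median log2 difference was 0.39 over the 10 genes and 2.7e-05 over all genes. Probe sets of 1 gene share its RNA and are not separate pieces of evidence. With the mean of all probe sets standing for each gene, 6 of the 10 were called, beside 2112 of 18193, because Bcl2l1 and Bcl2l11 then passed 2-fold as well.

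The tumour and wild-type lines differed in more members, with 7 of 10 genes called. Bcl2l15, Bcl2, Bcl2l1, Bcl2l11 and Bid were higher in the tumour line, and Bmf and Bad were lower. Over all genes 16.6% were called, 8.09% as higher and 8.46% as lower. By probe set 14 of 34 were called higher and 2 lower, beside 13.1% called either way over all probe sets, 6.69% as higher and 6.42% as lower. The arrays were fully separate for 28 of the 34 probe sets, against 47.6% of all, and for 8 of the 10 genes, against 54.7% of all. The median log2 difference was 0.73 over the 10 genes, against 0.01 over all genes. With the mean of all probe sets per gene, 5 of the 10 were called, all higher, beside 2530 of 18193, and Bmf and Bad fell short of 2-fold. This comparison shares the tumour arrays with the comparison against the knockout line, so they are not independent.

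Between the knockout and wild-type lines, which differ in Gprc5a and were both grown from trachea, Bmf was the only member called, and it was lower in the knockout line. Over all genes 4.88% were called, 1.9% as higher and 2.98% as lower. By probe set 1 of 34 was called, beside 3.71% of all, 1.61% as higher and 2.11% as lower. The arrays were fully separate for 19 of the 34 probe sets, against 31.5% of all, and for 6 of the 10 genes, against 39.1% of all. Without the 2-fold requirement limma's adjusted p was under 0.05 for 15 of the 34 probe sets, 14 of them higher in the knockout line. Of all 45037 it was under 0.05 for 7684, of which 3311 were higher and 4373 lower. Limma called 0 of the 34 as higher, and 16 were higher with an unadjusted p under 0.05, beside 5674 of all 45037 probe sets. Without wild-type replicate 1, 2 of the 34 were called. The median log2 difference was 0.16 over the 10 genes, against -0.0042 over all genes.

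**Figure D1:**
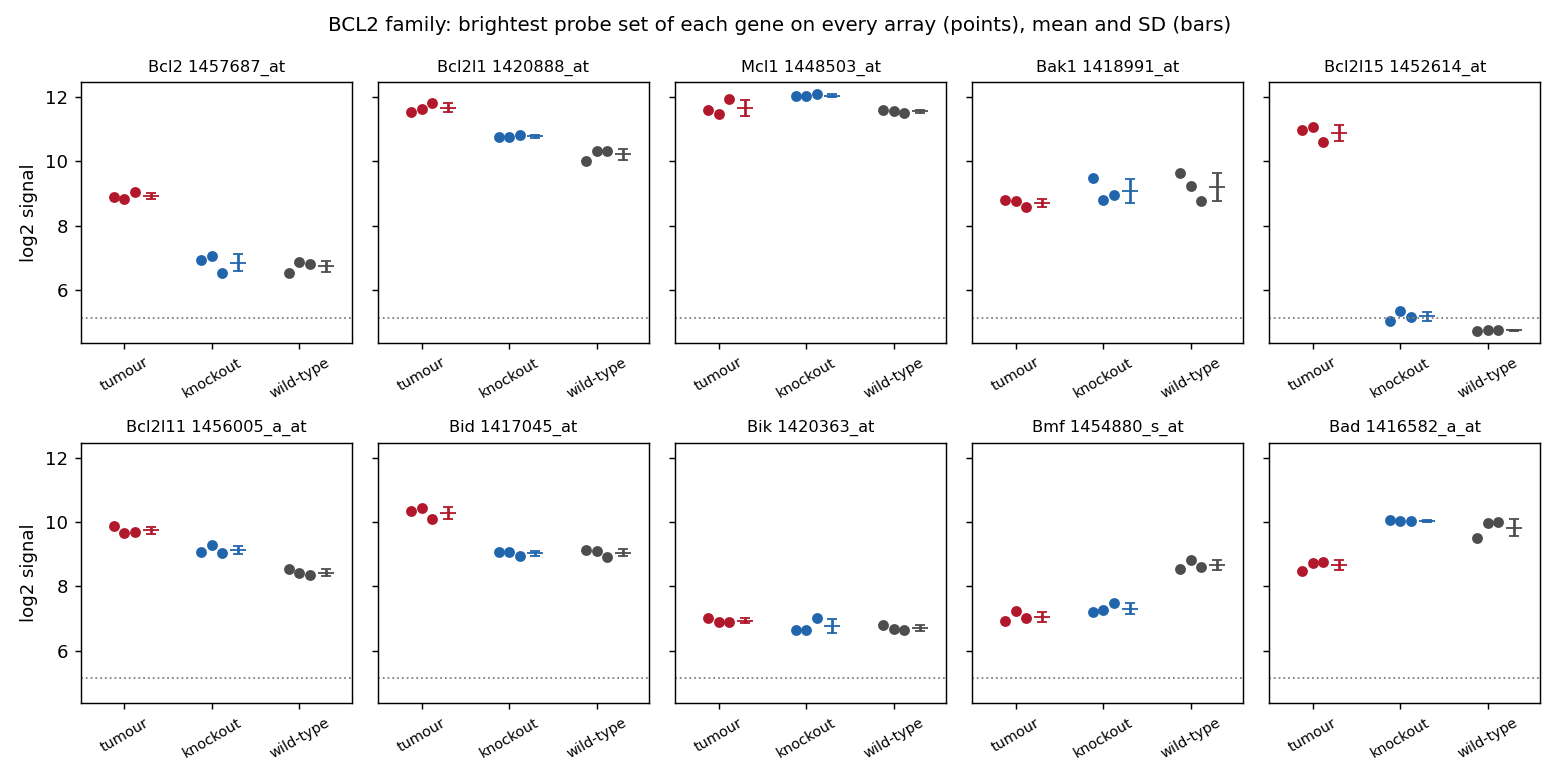
Log2 signal of the brightest probe set of each of the 10 BCL2 family genes, with 1 point per array and the mean ± SD of 3 arrays beside it, in the tumour, knockout and wild-type lines from left to right. The dotted line is the floor of 5.15; Bcl2l15 lies at 10.59 to 11.08 in the tumour line and close to the floor in both others.

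Of the pro-survival genes, Bcl2, the founding member of the family, was about 4 times brighter in the tumour line. On its brightest probe set, 1457687_at, it had 8.90, 8.85 and 9.04 on tumour arrays, 6.94, 7.05 and 6.55 on knockout arrays, and 6.54, 6.87 and 6.81 on wild-type arrays. Every tumour array lay above every array of the other lines, and the knockout and wild-type arrays overlapped. Bcl2 was 4.23-fold higher for tumour against knockout (difference 2.08 ± 0.14 SE in log2, n = 3 arrays each, limma adjusted p = 1.80e-07). Against the wild-type line it was 4.56-fold higher (2.19 ± 0.14, limma adjusted p = 9.67e-08). The difference between knockout and wild-type was 0.11 ± 0.14 and not called.

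The 5 Bcl2 probe sets pointed the same way but differed in size. A second, 1437122_at, had 7.35, 7.81 and 7.86 on tumour arrays, 5.53, 5.76 and 5.73 on knockout arrays and 5.55, 5.49 and 5.19 on wild-type arrays, and was 3.99-fold higher for tumour against knockout (limma adjusted p = 4.19e-07). With the highest bacterial control value, 5.96, as the floor, 1437122_at was at least 3.27-fold higher against either tracheal line. Probe set 1422938_at differed by 0.65 against knockout and 0.86 against wild-type, short of 2-fold. The remaining 2 were dim: 1440770_at was under the floor on all 9 arrays and 1443837_x_at averaged 5.30.

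Bcl2l1, whose long product BCL-XL keeps epithelial cells alive under stress, was highest in the tumour line and lowest in the wild-type line. Its brightest probe set, 1420888_at, had 11.54, 11.63 and 11.81 on tumour arrays, 10.75, 10.75 and 10.83 on knockout arrays, and 10.02, 10.32 and 10.32 on wild-type arrays. The 3 lines did not overlap. It was 2.71-fold higher in the tumour than in the wild-type line (1.44 ± 0.11 SE, n = 3 each, limma adjusted p = 4.50e-07). Against the knockout line it was 1.85-fold higher (0.89 ± 0.11, limma adjusted p = 3.34e-05), which is short of the 2-fold threshold. The knockout line was 1.47-fold above the wild-type line (0.55 ± 0.11, limma adjusted p = 0.00338), also short of it.

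A pair of other Bcl2l1 probe sets gave larger differences. Probe set 1420887_a_at had 10.40, 9.53 and 9.51 on tumour arrays, against 8.35, 8.24 and 8.11 on knockout and 7.86, 7.93 and 7.61 on wild-type arrays, and was 2.99-fold higher than in the knockout line. Tumour replicate 1 stood above the other tumour arrays there and on 1426191_a_at, where the tumour arrays had 8.63, 8.07 and 8.07. That probe set was 2.77-fold higher for tumour against knockout and 4.14-fold higher than in the wild-type line. The fourth, 1426050_at, stayed near the floor, with means of 5.17, 4.83 and 5.15 in the tumour, knockout and wild-type lines. When all 4 were averaged, Bcl2l1 was called against the knockout line too (1.07 ± 0.10 SE, limma adjusted p = 1.62e-06).

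Mcl1 encodes a short-lived pro-survival protein that is lost fast once its synthesis stops, and it was the one pro-survival gene whose highest level was in the knockout line. All 6 probe sets were higher in the knockout than in the wild-type line, by 0.49 to 0.82, without overlap between arrays and with limma's adjusted p under 0.05, yet each stayed short of 2-fold. The brightest, 1448503_at, had 11.60, 11.45 and 11.92 on tumour arrays, 12.01, 12.01 and 12.08 on knockout arrays and 11.58, 11.55 and 11.50 on wild-type arrays. The knockout arrays stood above all others, and the tumour and wild-type arrays overlapped. On this probe set the tumour line was lower than the knockout line by 0.38 on the log2 scale (limma adjusted p = 0.0198).

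The 6 Mcl1 probe sets did not agree on the size of the fall in the tumour line. Probe sets 1437527_x_at, 1456243_x_at and 1456381_x_at were called lower than in the knockout line, with log2 differences of -1.14, -1.09 and -1.08. On 1437527_x_at the arrays had 10.24, 10.51 and 10.52 for tumour, 11.62, 11.62 and 11.45 for knockout, and 10.73, 10.92 and 10.87 for wild-type, so here the tumour line was the lowest. On the other 3 the difference from the knockout line was -0.76, -0.38 and -0.11, and the wild-type line had the lowest mean. On 1416880_at and 1448503_at, however, the tumour and wild-type arrays overlapped, with differences of 0.05 and 0.11 (limma adjusted p = 0.758 and 0.501). The suffix _x_at marks probe sets whose probes can also bind other transcripts. Without tumour replicate 1, 1456243_x_at and 1456381_x_at fell short of 2-fold, at -0.998 and -0.993. Against the wild-type line none of the 6 was called by limma; the differences ran from -0.46 to 0.72, and 4 had an adjusted p under 0.05.

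**Figure D2:**
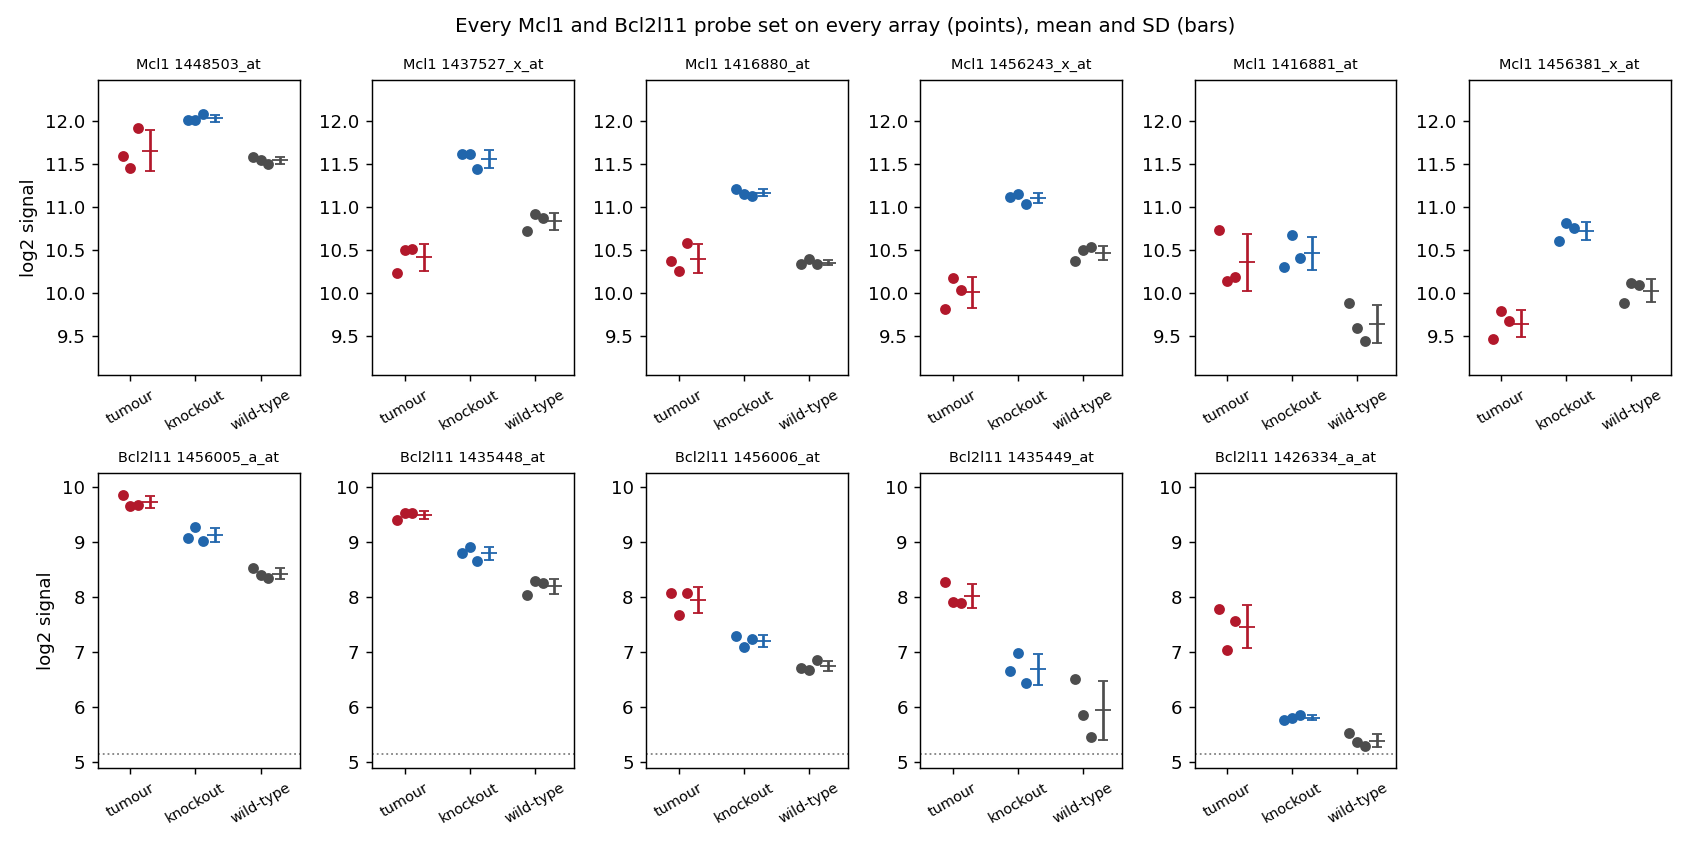
Log2 signal of the 6 Mcl1 probe sets (top) and the 5 Bcl2l11 probe sets (bottom), with 1 point per array and the mean ± SD of 3 arrays beside it, in the tumour, knockout and wild-type lines from left to right; the dotted line is the floor of 5.15. The knockout line has the highest mean on every Mcl1 probe set, and the tumour line has the highest on every Bcl2l11 probe set, with means of 7.46 to 9.74.

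The effector Bak1 did not pass the test in any comparison. Its brightest probe set, 1418991_at, had 8.81, 8.75 and 8.58 on tumour arrays, 9.49, 8.79 and 8.96 on knockout arrays and 9.62, 9.25 and 8.76 on wild-type arrays. All 3 lines overlapped. The log2 difference was -0.37 ± 0.21 SE for tumour against knockout, -0.50 ± 0.21 for tumour against wild-type and -0.13 ± 0.21 for knockout against wild-type, with limma adjusted p of 0.222, 0.0908 and 0.774. The second, 1425716_s_at, lay around the floor, with means of 5.26, 5.12 and 4.93 in the tumour, knockout and wild-type lines.

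Bcl2l15 showed the widest difference of the family, and its only probe set, 1452614_at, read near background in both tracheal lines. It had 10.96, 11.08 and 10.59 on tumour arrays, 5.06, 5.34 and 5.16 on knockout arrays and 4.74, 4.75 and 4.77 on wild-type arrays. Its signal in the tumour line was 51.6-fold the level on knockout arrays (difference 5.69 ± 0.12 SE in log2, n = 3 each, limma adjusted p = 1.62e-11). Because the knockout mean of 5.19 lay next to the floor of 5.15, this fold rests in part on background. Against the wild-type line, which was under the floor on every array, Bcl2l15 was at least 53.0-fold higher (limma adjusted p = 6.24e-12). With the highest bacterial control value, 5.96, as the floor, the bound is at least 30.2-fold against either tracheal line. In RNA from a whole culture, more expressing cells and more RNA per cell cannot be told apart, here and for the genes that follow.

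Bcl2l11 encodes BIM, a BH3-only protein that binds every pro-survival member and is raised when growth factor signals are lost. All 5 probe sets followed the same order, with the tumour line highest, the knockout line next and the wild-type line lowest. On 1456005_a_at, the brightest, the arrays had 9.86, 9.67 and 9.68 in the tumour line, 9.08, 9.28 and 9.03 in the knockout line, and 8.54, 8.41 and 8.35 in the wild-type line. The lines did not overlap. The tumour line was 2.47-fold above the wild-type line (1.31 ± 0.10 SE, n = 3 each, limma adjusted p = 6.11e-07). It was 1.52-fold above the knockout line (limma adjusted p = 0.000432), and the knockout line was 1.62-fold above the wild-type line (limma adjusted p = 0.000409), both short of 2-fold.

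Against the wild-type line all 5 Bcl2l11 probe sets were called, with log2 differences of 1.20 to 2.09. Against the knockout line 1426334_a_at and 1435449_at were called, at 1.66 ± 0.16 and 1.34 ± 0.23 SE, and the other 3 differed by 0.61 to 0.74. The mean of the 5 probe sets was called higher against the knockout line (1.01 ± 0.10 SE, limma adjusted p = 1.81e-06). Probe set 1426334_a_at had 7.78, 7.03 and 7.57 on tumour arrays, 5.77, 5.79 and 5.85 on knockout arrays and 5.52, 5.35 and 5.28 on wild-type arrays. With 5.96 as the floor, its tumour signal was at least 2.83-fold higher against either tracheal line. Between knockout and wild-type none was called by limma, at 0.42 to 0.75, although 4 of 5 had an adjusted p under 0.05. On 1435449_at the wild-type arrays spread from 5.45 to 6.51, and without wild-type replicate 1 the knockout line was called higher there, by 1.04.

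Bid is cut by caspase-8 and then carries a death receptor signal to the mitochondria, and it was higher in the tumour line on all 3 of its probe sets. The brightest, 1417045_at, had 10.36, 10.43 and 10.08 on tumour arrays, 9.08, 9.07 and 8.94 on knockout arrays and 9.12, 9.11 and 8.92 on wild-type arrays. The tumour arrays stood apart, and the tracheal lines overlapped each other. Bid was 2.39-fold higher for tumour against knockout (1.26 ± 0.11 SE, n = 3 each, limma adjusted p = 1.90e-06) and 2.36-fold higher than in the wild-type line (1.24 ± 0.11, limma adjusted p = 1.87e-06). The other 2 differed by 1.22 and 1.11 against knockout and by 1.41 and 1.09 against wild-type. Without tumour replicate 3, 1447873_x_at fell just short of 2-fold in both comparisons, at 0.99 and 0.97.

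Bad, which is held inactive while survival kinases phosphorylate it, was lower in the tumour line. Its brightest probe set, 1416582_a_at, had 8.49, 8.74 and 8.75 on tumour arrays, 10.06, 10.03 and 10.02 on knockout arrays and 9.51, 9.97 and 9.996 on wild-type arrays. It fell 2.59-fold in the tumour line relative to the knockout line (difference -1.38 ± 0.13 SE in log2, n = 3 each, limma adjusted p = 4.16e-06). Against the wild-type line it was 2.25-fold lower (-1.17 ± 0.13, limma adjusted p = 1.45e-05). The tumour arrays lay below all others. The second, 1416583_at, had 7.36, 7.30 and 7.33 on tumour arrays, 8.44, 8.85 and 8.73 on knockout arrays and 8.11, 8.003 and 8.10 on wild-type arrays. It was called lower against the knockout line (-1.34 ± 0.11) but not against the wild-type line (-0.74 ± 0.11). The mean of both probe sets was not called against the wild-type line, at -0.95 ± 0.09.

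Bmf, a BH3-only protein tied to the cytoskeleton that acts when epithelial cells lose their attachment, was lower in both Gprc5a-knockout lines by its brightest probe set, 1454880_s_at. The arrays had 6.92, 7.23 and 7.01 for tumour, 7.20, 7.26 and 7.49 for knockout, and 8.54, 8.83 and 8.60 for wild-type. The wild-type arrays stood above the others, which overlapped. Bmf was 2.53-fold lower in the knockout than in the wild-type line (log2 difference -1.34 ± 0.12 SE, n = 3 each, limma adjusted p = 9.05e-06) and 3.04-fold lower in the tumour than in the wild-type line (-1.60 ± 0.12, limma adjusted p = 4.67e-07). Between tumour and knockout it differed by -0.26 ± 0.12 and was not called.

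The other 2 Bmf probe sets did not share this fall. Probe set 1458325_x_at averaged 6.12, 6.24 and 5.68 in the tumour, knockout and wild-type lines, and 1422995_at averaged 5.24, 5.38 and 5.34, close to the floor. Neither was called. The mean of the 3 probe sets was not called in either comparison with the wild-type line, at -0.25 for knockout (limma adjusted p = 0.147) and -0.42 for tumour (0.00816). The call of Bmf thus rests on 1 probe set, whose suffix _s_at marks probes that can bind several transcripts.

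Bik, which acts mainly from the endoplasmic reticulum, was not called in any comparison. Its brightest probe set, 1420363_at, had 7.03, 6.91 and 6.89 on tumour arrays, 6.66, 6.65 and 7.02 on knockout arrays and 6.81, 6.69 and 6.64 on wild-type arrays. The tumour and knockout arrays overlapped and the log2 difference was 0.17 ± 0.11 SE (limma adjusted p = 0.289). The dimmest, 1420362_a_at, had 5.25, 5.19 and 5.31 on tumour arrays and lay under the floor on the 6 others. All 3 Bik probe sets averaged higher in the tumour line, by 0.17 to 0.65 against knockout and 0.23 to 0.58 against wild-type. In each of these comparisons 2 of the 3, 1420362_a_at and 1449836_x_at, had a limma adjusted p under 0.05 while short of 2-fold.

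**Figure D3:**
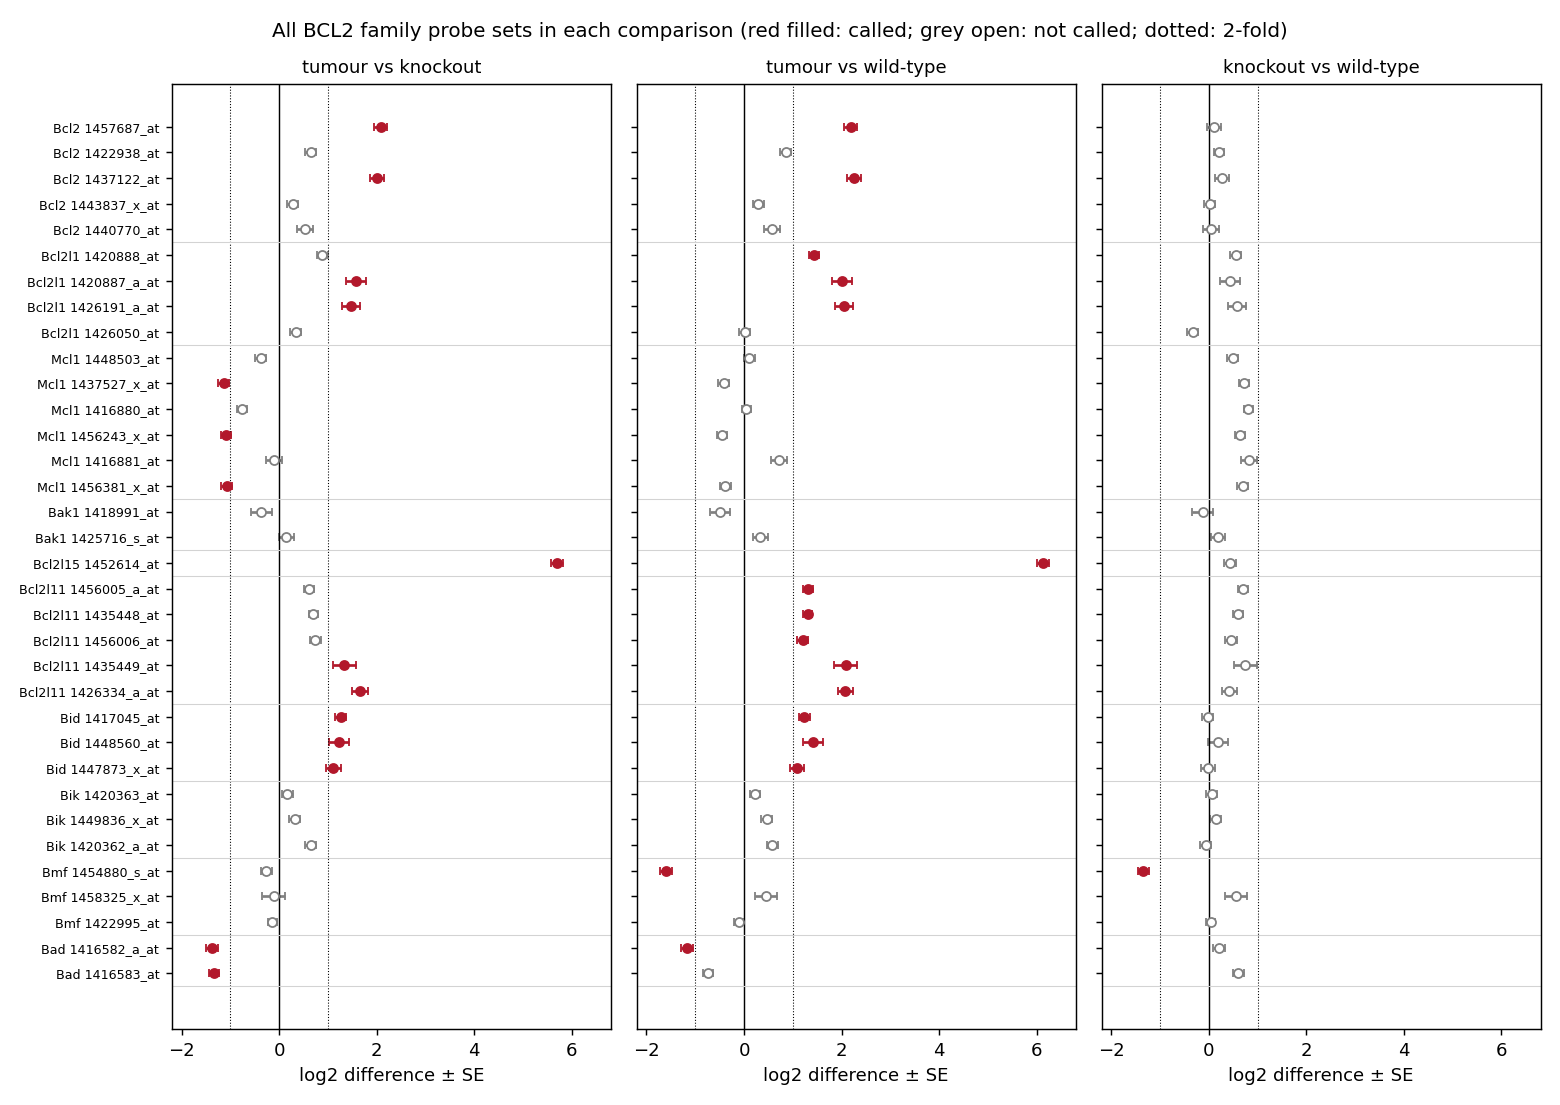
Log2 difference ± SE of all 34 BCL2 family probe sets for tumour against knockout, tumour against wild-type and knockout against wild-type, 3 arrays per line. Filled red points were called, open grey points were not, and dotted lines mark 2-fold; in the first panel 10 are called higher and 5 lower, and in the last 1 is called, a Bmf probe set.

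Bcl2l15, Bcl2 and Bmf had the widest ranges of line means among the called members, and the genes whose profiles ran closest to theirs were sought over the 9 arrays, as the root mean square difference of log2 values after each gene was centred on its own mean. For Bcl2l15 the closest were the mucin Muc1 at 0.27, Parvb, which links integrins to actin, at 0.31, and the actin-bundling Lcp1 at 0.31. For Bcl2 they were Hsd11b1, which activates glucocorticoids, at 0.11, Cxxc5 at 0.12 and the mitotic kinase Cdk1 at 0.13. For Bmf they were Chit1 and Prickle2, both at 0.14, and Gprc5a itself at 0.15. With 3 lines, many genes share such a pattern, so these distances describe likeness only.

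Around the family, 50 measured genes of 6 lists were examined: other BCL2-related genes, the apoptosome and caspases, IAP proteins and their antagonists, death receptors, organelle partners, and regulators of the member proteins. For tumour against knockout 6 of the 50 were called higher and 3 lower, beside 14.2% called over all genes. For tumour against wild-type 9 were higher and 7 lower, beside 16.6%, and for knockout against wild-type 2 were higher and 1 lower, beside 4.88%. In the last comparison quantile normalization gave 4 higher and 1 lower, and so did leaving out wild-type replicate 3. The median log2 difference over the 50 was 0.07, 0.03 and -0.03 in these comparisons.

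Pmaip1, which encodes NOXA, the BH3-only protein that neutralises MCL1, had the widest difference among the related genes. It had 3.72, 3.74 and 3.63 on tumour arrays, 10.61, 10.55 and 10.54 on knockout arrays and 10.45, 10.46 and 10.74 on wild-type arrays. It was under the floor on every tumour array, and was at least 42.8-fold lower against knockout (limma adjusted p = 9.03e-13). Of the 10 related genes measured it was the 1 called in that comparison, beside 14.2% of all genes. Bbc3, which encodes the p53 target PUMA, averaged 8.72 ± 0.11 for tumour, 8.74 ± 0.09 for knockout and 8.23 ± 0.04 for wild-type (SD, n = 3 each) and was not called. Short of 2-fold, it was higher than in the wild-type line without overlap. The difference was 0.51 for knockout (limma adjusted p = 0.00180) and 0.49 for tumour (limma adjusted p = 0.000805). Bnip3, a BH3-like protein of mitochondrial clearance, was lower than in the wild-type line in both the tumour (-1.04 ± 0.14 SE) and the knockout line (-1.50 ± 0.14).

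Among the caspases and the apoptosome, Apaf1, the scaffold that activates caspase-9, was higher than in the wild-type line in both the tumour (1.19 ± 0.09 SE) and the knockout line (1.11 ± 0.09). Casp8, the initiator that cuts Bid, was called higher for tumour against wild-type (1.04 ± 0.16 SE). For knockout against wild-type it differed by 0.97 ± 0.16 without overlap (limma adjusted p = 0.00119), just short of 2-fold. For tumour against knockout none of the 6 measured was called by limma, and 4 had an unadjusted p under 0.05. Among all 18193 genes, 14.2% were called and 8825 had an unadjusted limma p under 0.05. The death receptor Fas had 6.46, 6.63 and 6.85 on tumour arrays, 8.02, 8.16 and 8.04 on knockout arrays and 6.27, 6.13 and 6.17 on wild-type arrays. It was thus called higher for knockout against wild-type (1.88 ± 0.11) and lower for tumour against knockout (-1.43 ± 0.11). Cflar, the caspase-8 inhibitor FLIP, was higher for tumour against knockout by 1.22 ± 0.09 SE, and the receptor Tnfrsf10b was higher than in the wild-type line by 1.47 ± 0.14, while the adaptor Tradd was lower by 1.17.

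Beside 7.79% of all genes, 3 of 7 IAP-related genes were called higher for tumour against knockout. These were Birc5 (survivin), which also acts in mitosis, by 2.23 ± 0.15 SE, the protease Htra2, which counters IAP proteins, by 1.21 ± 0.08, and Birc3 by 1.12 ± 0.14. All 3 were higher than in the wild-type line as well, and Birc2 was lower there, by 1.15. The kinase gene Akt1, whose product phosphorylates Bad, was higher in the tumour line, at 11.06, 10.82 and 11.17, against 9.59, 9.45 and 9.62 on knockout and 9.73, 9.73 and 9.62 on wild-type arrays. Foxo3, a transcription factor known to raise Bcl2l11, was lower in the tumour line, with 8.03, 8.14 and 8.21, against 10.23, 10.43 and 10.59 on knockout and 8.99, 9.40 and 9.97 on wild-type arrays. Its log2 difference was -2.29 ± 0.20 against knockout (limma adjusted p = 1.83e-06) and -1.32 ± 0.20 against wild-type (limma adjusted p = 0.000164). Bag1, a co-chaperone that binds BCL2, was higher than in the knockout line by 1.40 ± 0.10. Against the wild-type line Tmbim6, an inhibitor of cell death in the endoplasmic reticulum, was higher by 1.13 ± 0.10. In the same comparison the mitochondrial channel Vdac1 fell by 1.15, and Dynll2, the dynein light chain that holds BMF, fell by 1.04.

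**Figure D4:**
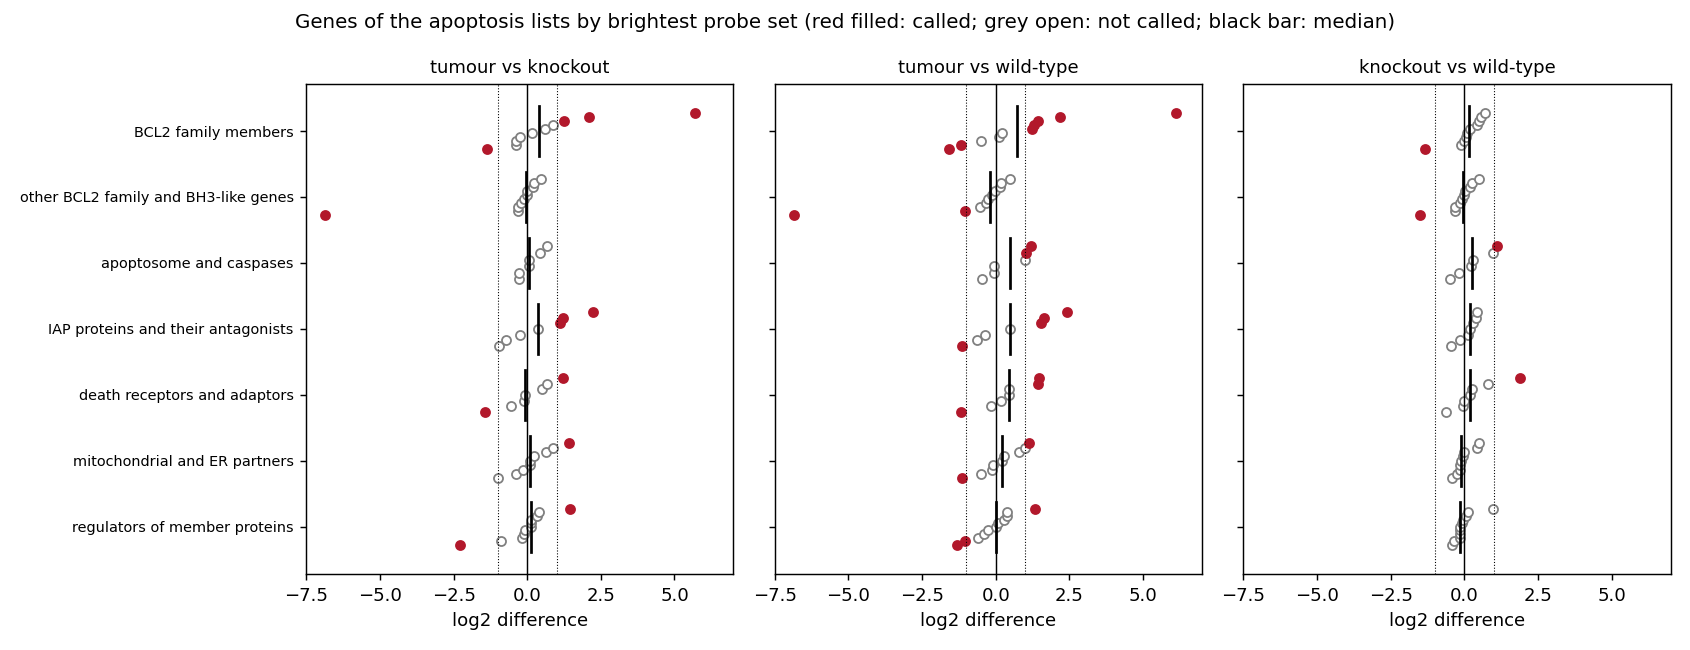
Log2 difference of each measured gene, by its brightest probe set, in the 10 BCL2 family members and the 6 surrounding lists, for tumour against knockout, tumour against wild-type and knockout against wild-type. Filled red points were called, open grey points were not, black bars are list medians and dotted lines mark 2-fold; Pmaip1 is the point at -6.87 in the first panel and Bcl2l15 the point at 5.69.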

How the data were processed

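RNA from 3 lines was hybridised to 9 arrays, 3 per line. The authors deposited log2 signals, 1 value per probe set and array. How those were summarized and normalized is not given in the sources used here. Array medians lay between 6.28 and 6.34, and the values were used as deposited. Arrays give no counts, and their number limits the precision. Probe sets were named through the supplied platform annotation: 34945 carried 1 symbol, 932 several and 9160 none, and 64 were controls.

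All 45037 non-control probe sets were fitted with limma 3.58.1 (lmFit and eBayes) in R 4.3.3, with line as the only term. P-values are two-sided and Benjamini-Hochberg adjusted over all of them. A fold is a lower bound where every array of the dimmer line lay under the floor. On simulated data of the same size, 1 of 50 probe sets changed 1.5-fold, 45 of 50 changed 2.5-fold and 50 of 50 changed 4-fold were called for tumour against knockout, with 0 false calls among the unchanged. A 1.5-fold change is short of the 2-fold threshold, so its count does not measure detection. The simulated noise was independent between probe sets and arrays, so shared array effects were not covered. The members, lists, thresholds and floor were chosen with earlier results of these data known. Named genes are the members, called genes of the 6 lists (up to 6 per list and comparison by size), and Bbc3 and Pmaip1 in every case; some listed genes are not analysed here; Krt5, Sftpc and the other markers check the labels. Promoters come from RefSeq (GRCm38.p6). The alternatives were another normalization, filter, threshold, prior, unit of testing or set of arrays, and the replicate number as a block.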

Additional observations from a re-analysis of the deposited data

How the results depend on the processing

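Of 1821 recomputed differences of member probe sets, 1763 kept their direction and their side of the threshold, 0 changed sign while called, 54 were newly called (53 of them under a lower fold threshold) and 4 lost their call, all 4 without 1 tumour array. With no fold threshold the calls for knockout against wild-type were 15 member probe sets, 5 member genes, 16 list genes, 7684 of all probe sets and 4109 of all genes. For tumour against knockout they were 26, 7, 26, 15963 and 7679 in the same order. For tumour against wild-type they were 25 member probe sets, 35 list genes, 17021 probe sets and 8199 genes. A 1.5-fold threshold gave 10, 2, 7, 4129 and 2164 for knockout against wild-type. It gave 17 list genes, 9950 probe sets and 4873 genes for tumour against knockout, and 10892 probe sets and 5371 genes for tumour against wild-type. Dropping the _x_at and _s_at probe sets, which removes the called Bmf probe set, limma called 0 member probe sets and 0 member genes for knockout against wild-type, and 13 and 4 of them had an unadjusted p under 0.05. Averaging all probe sets per gene, it called 0 member genes there, and 5 had an unadjusted p under 0.05. Quantile normalization gave 5 list genes for knockout against wild-type, in place of 3. Leaving out 1 array at a time gave 1 to 2 member probe sets and 3 to 5 list genes in that comparison. Without wild-type replicate 1 it was 2 member probe sets, and without wild-type replicate 3 it was 5 list genes. The replicate block gave 1, 15 and 16 member probe sets called for knockout against wild-type, tumour against knockout and tumour against wild-type, the same as without it. Same-numbered arrays of different lines correlated in their deviations by -0.15 to 0.28, and 2 of 9 arrays correlated best with their own number in both other lines, so the numbers were not taken to pair the samples. The floor limits what can be said of Bcl2l15 and of the dim Bcl2, Bcl2l1, Bak1, Bik and Bmf probe sets.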
